A study of Rattus norvegicus with 17 samples.

Results

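Bile acid synthesis and its feedback control in rat liver were followed through 10 genes, taken as the probe sets whose platform gene symbol was Cyp7a1, Cyp8b1, Cyp27a1, Cyp7b1, Nr1h4, Nr0b2, Fgfr4, Slc10a1, Slc27a5 or Baat. All 10 were found among the 14217 genes with a probe set of a single symbol, and each had 1 probe set. The study measured liver RNA of 17 male Harlan Sprague-Dawley rats on 1 oligonucleotide array per rat. Isopropylated phenol phosphate (IPP), an organophosphate flame retardant and plasticizer, was given by oral gavage in corn oil once daily for 4 days. The 5 vehicle rats received corn oil alone, and 3 rats each received 76.5, 153, 305.5 or 611 mg/kg body weight per day. Left lobe pieces were taken on the day after the last dose. The labels give no age and no clock time of necropsy.

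Hepatocytes make bile acids from cholesterol by a classic route that CYP7A1 opens and an alternative route that CYP27A1 opens and CYP7B1 continues, and CYP8B1 directs the classic route to cholic acid. Bile acids activate the nuclear receptor FXR (Nr1h4), which induces the corepressor SHP (Nr0b2), and SHP lowers transcription of Cyp7a1 and Cyp8b1, largely through the nuclear receptors LRH-1 (Nr5a2) and HNF4-alpha. A second signal reaches the same genes from the intestine through the hormone FGF15 and its hepatocyte receptor FGFR4. NTCP (Slc10a1) takes conjugated bile acids back up from portal blood, and the ligase encoded by Slc27a5 and the transferase encoded by Baat join bile acids to taurine or glycine.

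RefSeq promoter windows of 250 bases before to 50 bases after the gene start (assembly GRCr8) were given for 7 of the 10 genes: Cyp8b1, Cyp27a1, Nr0b2, Slc10a1, Baat, Slc27a5 and Fgfr4. The windows of Cyp8b1 and Nr0b2 are shown because these are the genes called at single doses. Capitals in the Cyp8b1 window (chr8:130457543-130457842, minus strand) mark CAAGGTC, the motif of the NR5A receptors to which LRH-1 belongs, whose first base lay at -89. Capitals in the Nr0b2 window (chr5:151062910-151063209, plus strand) mark the E-box CACGTG, the motif of the clock activators, whose first base lay at -193.
Cyp8b1: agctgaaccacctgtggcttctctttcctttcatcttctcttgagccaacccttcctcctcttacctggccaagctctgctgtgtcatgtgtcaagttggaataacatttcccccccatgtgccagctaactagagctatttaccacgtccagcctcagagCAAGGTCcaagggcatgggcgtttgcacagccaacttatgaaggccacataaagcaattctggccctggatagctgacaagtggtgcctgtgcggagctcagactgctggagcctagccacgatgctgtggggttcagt
Nr0b2: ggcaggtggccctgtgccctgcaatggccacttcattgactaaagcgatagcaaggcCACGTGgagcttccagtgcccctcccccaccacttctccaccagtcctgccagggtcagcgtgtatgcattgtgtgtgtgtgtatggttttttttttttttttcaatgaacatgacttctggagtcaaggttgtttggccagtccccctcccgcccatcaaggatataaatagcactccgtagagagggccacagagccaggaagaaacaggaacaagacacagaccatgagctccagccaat

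Motifs were sought on both strands of all 33469 windows. CAAGGTC was found in 4.2% of them and in 2 of the 7 windows of the bile acid genes, Cyp8b1 and Cyp27a1. CACGTG was found in 6.42% of all windows and in Nr0b2 alone among the 7. The nuclear receptor core motif AGGTCA was found in 16.2% of all windows and in those of Cyp27a1, Slc10a1 and Fgfr4. It is part of the ROR and REV-ERB motif TAGGTCA (2.63% of all windows), and it overlaps CAAGGTC where an A follows. TAGGTCA, the FXR-type inverted repeat GTCANTGAC (0.448%) and the D-box TTATGNAA (3.66%) were in 0 of the 7. A match describes letters in this window, not a bound site.

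Values are log2 signals. Each difference is a dose group minus vehicle on that scale, given ± its SE, and comes from a limma model of the 17 arrays. P-values were adjusted by Benjamini-Hochberg over 14217 genes, and a gene with an adjusted p under 0.05 is said to be called. The 4 doses share the 5 vehicle rats, so their differences are not independent. The arrays had medians of 6.29 to 6.40 and correlated pairwise at 0.975 to 0.996, and their small number sets the precision. Hepatocyte markers (5 of 6 measured, among them Alb and Ttr) averaged 14.24 to 14.41 on every array, and 0 of the 5 were called at any dose or for the slope. Arrays of 76.5 mg/kg rats 2 and 3 and of 611 mg/kg rat 2 stood apart from the others. For 611 mg/kg rat 2 the 3' minus 5' difference of the GAPDH control was 2.89, against 0.93 to 1.56 on the other arrays. Calls of the 10 genes, and list counts at single doses, that change without these arrays are given with both values. More of all 14217 genes were also called without these arrays: 314 at 153 mg/kg and 778 at 305.5 mg/kg, against 106 and 316 with them. Leaving them out leaves 1 rat at 76.5 mg/kg, which the model then takes to vary like the rats of the other groups.

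Of the 10 genes, Cyp8b1 was called higher than in vehicle at 153, 305.5 and 611 mg/kg, and Nr0b2 at 611 mg/kg. Cyp7a1 had the largest differences, up to 4.15-fold at 611 mg/kg, and was not called at any single dose but was called for the slope over the 5 groups. The other 7 genes were called at no dose. At 76.5 mg/kg limma called 0 of the 10 (1 at an unadjusted p under 0.05), where 0.267% of all genes were called. It called 1 of 10 at 153 mg/kg (0.746% of all genes), 1 of 10 at 305.5 mg/kg (2.22%) and 2 of 10 at 611 mg/kg (7.46%). The median difference over the 10 genes was -0.06, 0.00, -0.03 and 0.04 in order of dose, beside medians over all genes of 0.01, 0.01, 0.01 and -0.00. The calls thus came from single genes while the middle of the set lay near 0.

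**Figure D1:**
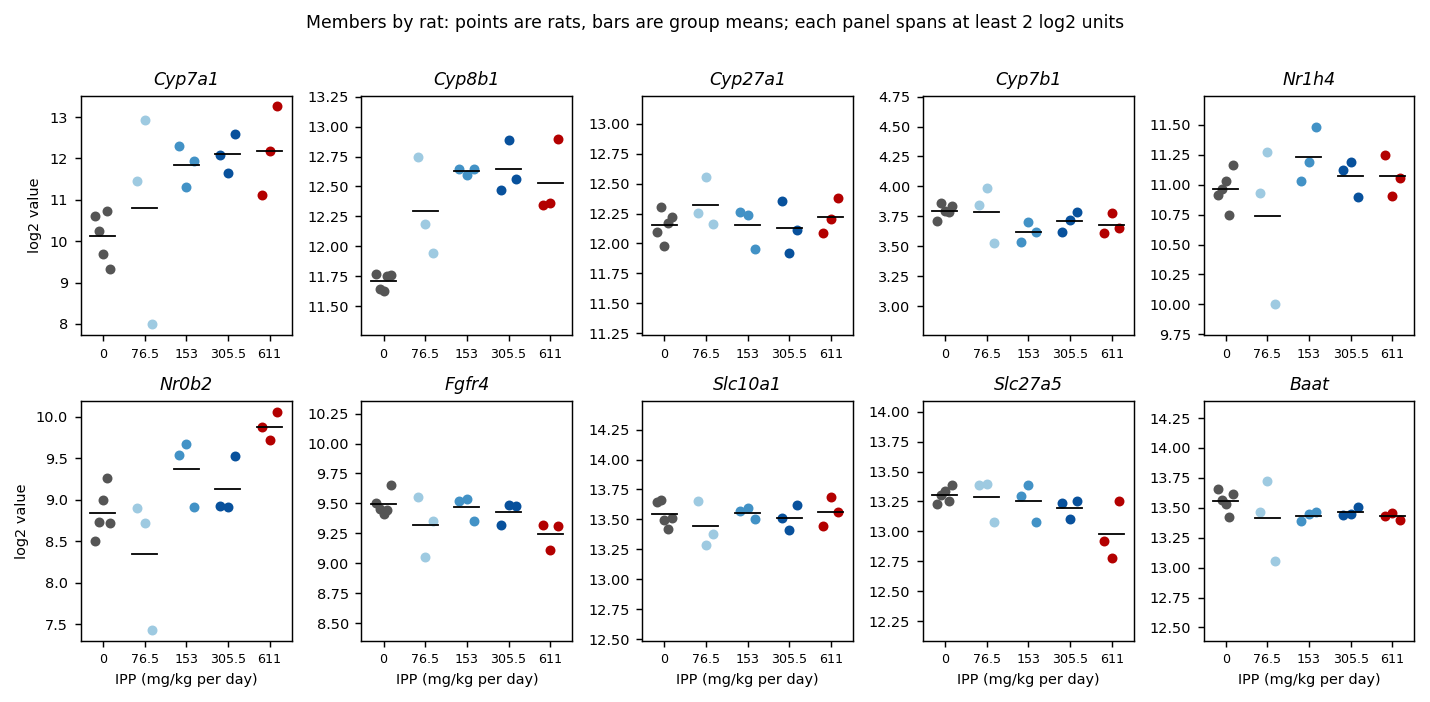
Log2 value (vertical axis) of the 10 genes in each of 17 rats by daily IPP amount in mg/kg (horizontal axis, 0 is vehicle); points are rats and bars are group means, and panels differ in scale. All 12 treated rats lay above the 5 vehicle rats for Cyp8b1, 11 of 12 did so for Cyp7a1, and 76.5 mg/kg rat 3 was the lowest rat for Cyp7a1, Cyp7b1, Nr1h4, Nr0b2 and Baat.

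Cyp7a1 encodes the rate-limiting enzyme of the classic route. In the 5 vehicle rats its values were 10.61, 10.26, 9.70, 10.73 and 9.33. They were 11.45, 12.94 and 8.0 at 76.5 mg/kg, 12.29, 11.31 and 11.94 at 153 mg/kg, 12.07, 11.65 and 12.59 at 305.5 mg/kg, and 11.11, 12.17 and 13.26 at 611 mg/kg. Thus 11 of 12 treated rats lay above every vehicle rat, while 76.5 mg/kg rat 3 lay below every vehicle rat, and 1.88% of all genes had at least 11 of 12 treated rats above vehicle. From that rat to 611 mg/kg rat 3 the range was 5.26 on the log2 scale, or 38.3-fold. The spread within groups (pooled SD 1.21) was larger than that of 99.96% of genes.

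The Cyp7a1 differences from vehicle were 0.67 ± 0.74 at 76.5 mg/kg (limma adjusted p = 0.806), 1.72 ± 0.74 at 153 mg/kg (adjusted p = 0.371) and 1.98 ± 0.74 at 305.5 mg/kg (adjusted p = 0.216). At 611 mg/kg the difference was 2.05 ± 0.74, or 4.15-fold with a 95% interval of 1.41 to 12.3 (adjusted p = 0.102). None passed the test, although the intervals at the upper 3 doses lay above 0. Much of the pooled spread came from the 76.5 mg/kg group, whose SD was 2.54 (n = 3) against 0.60 in vehicle (n = 5). Without 76.5 mg/kg rat 3 the call was made at 305.5 mg/kg (adjusted p = 0.0159) and 611 mg/kg (adjusted p = 0.00637), and without all 3 arrays that stood apart also at 153 mg/kg (adjusted p = 0.0459).

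Cyp8b1 encodes the sterol 12-alpha-hydroxylase that sets the share of cholic acid. Vehicle rats were close together at 11.77, 11.64, 11.62, 11.75 and 11.76, with a mean of 11.71 ± 0.07 (SD, n = 5). The treated rats had 12.74, 12.19 and 11.94 at 76.5 mg/kg, 12.64, 12.60 and 12.65 at 153 mg/kg, 12.47, 12.89 and 12.56 at 305.5 mg/kg, and 12.34, 12.36 and 12.89 at 611 mg/kg. All 12 treated rats lay above all 5 vehicle rats, which held for 0.549% of all genes.

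Cyp8b1 rose by 0.92 ± 0.15 at 153 mg/kg, or 1.90-fold with a 95% interval of 1.52 to 2.36 (limma adjusted p = 0.00674). It rose by 0.93 ± 0.15 at 305.5 mg/kg (1.91-fold, adjusted p = 0.00293) and by 0.82 ± 0.15 at 611 mg/kg (1.77-fold, adjusted p = 0.00394). At 76.5 mg/kg the difference was 0.58 ± 0.15 (adjusted p = 0.146), and without rat 3 of that dose it was 0.76 and called (adjusted p = 0.0317). Without the 3 arrays it was 1.04 (adjusted p = 0.0217), a value of rat 1 alone, the highest of its group. Cyp8b1 therefore stood at a similar height in the upper 3 groups, whose ranges overlapped. Against 153 mg/kg the 305.5 mg/kg group differed by 0.01 with an interval of -0.34 to 0.37, and against 305.5 mg/kg the 611 mg/kg group by -0.11 with an interval of -0.47 to 0.25.

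Cyp27a1, which opens the alternative route, was measured at 11.98 to 12.31 in vehicle and 11.92 to 12.56 in treated rats. Its groups overlapped at every dose, and its differences lay between -0.03 and 0.17 (SE 0.12, limma adjusted p from 0.664 to 0.995). Cyp7b1, which carries that route on by 7-alpha-hydroxylation of oxysterols, lay between 3.53 and 3.99 on all arrays. These values are under log2 6, near background, where the array may not follow a change. All 3 rats at 153 mg/kg lay below vehicle for Cyp7b1 (-0.18 ± 0.09, adjusted p = 0.435).

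Nr1h4, which encodes the bile acid receptor FXR, was at 10.75 to 11.16 in vehicle and at 10.00 to 11.49 in treated rats. The lowest value was that of 76.5 mg/kg rat 3, and the highest that of 153 mg/kg rat 3. Group differences ran from -0.23 at 76.5 mg/kg to 0.27 at 153 mg/kg (SE 0.20), and limma called none of them (adjusted p from 0.626 to 0.874). At 611 mg/kg the difference was 0.11 with a 95% interval of -0.31 to 0.53.

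Nr0b2 encodes SHP, the corepressor induced by FXR. Its values were 8.50, 8.74, 9.0, 9.27 and 8.72 in vehicle, 8.90, 8.72 and 7.44 at 76.5 mg/kg, 9.55, 9.67 and 8.92 at 153 mg/kg, 8.93, 8.92 and 9.53 at 305.5 mg/kg, and 9.87, 9.72 and 10.06 at 611 mg/kg. The 3 rats at 611 mg/kg were the highest of all 17, and the other doses overlapped with vehicle. Nr0b2 rose by 1.04 ± 0.27 at 611 mg/kg, or 2.05-fold with a 95% interval of 1.38 to 3.06 (limma adjusted p = 0.0287). The differences at 76.5, 153 and 305.5 mg/kg were -0.49, 0.53 and 0.28 (SE 0.27, adjusted p = 0.555, 0.464 and 0.724). The call at 611 mg/kg was lost when any rat of that dose was left out, with adjusted p = 0.0588, 0.0702 and 0.0930 without rats 1, 2 and 3. Without 611 mg/kg rat 2, whose array had the high GAPDH difference, the rise was 1.12. The call was also lost without vehicle rat 1, 2 or 5 (adjusted p = 0.0675, 0.0519 and 0.0598).

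Fgfr4, the receptor of the intestinal FGF15 signal, was at 9.42 to 9.66 in vehicle and 9.32, 9.11 and 9.31 at 611 mg/kg. All 3 rats at that dose lay below vehicle, but the difference of -0.25 ± 0.11 was not called (limma adjusted p = 0.162). At the other doses Fgfr4 overlapped with vehicle, and its differences were -0.18, -0.02 and -0.07 in order of dose (adjusted p from 0.593 to 0.954).

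Slc10a1, the uptake transporter NTCP, ranged from 13.42 to 13.66 in vehicle and from 13.29 to 13.69 in treated rats. Its difference at 611 mg/kg was 0.02, or 1.01-fold with a 95% interval of 0.895 to 1.15, and limma called it at no dose (adjusted p from 0.721 to 0.977). Of the conjugating enzymes, Baat was at 13.42 to 13.66 in vehicle, and its differences ran from -0.14 to -0.09 (SE 0.10, adjusted p from 0.453 to 0.762).

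Slc27a5, the bile acid CoA ligase that acts ahead of Baat, was at 13.23, 13.30, 13.33, 13.26 and 13.39 in vehicle. Its values at 611 mg/kg were 12.92, 12.77 and 13.25, so that 2 of 3 rats lay below vehicle. The difference of -0.32 ± 0.10 did not pass the test (0.800-fold, limma adjusted p = 0.0640). It passed after centring each array on its median (-0.37, adjusted p = 0.0447), after a repeated quantile normalization (-0.31, adjusted p = 0.0493), without 76.5 mg/kg rat 3 (adjusted p = 0.0331) and without 611 mg/kg rat 3 (-0.46, adjusted p = 0.0173).

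**Figure D2:**
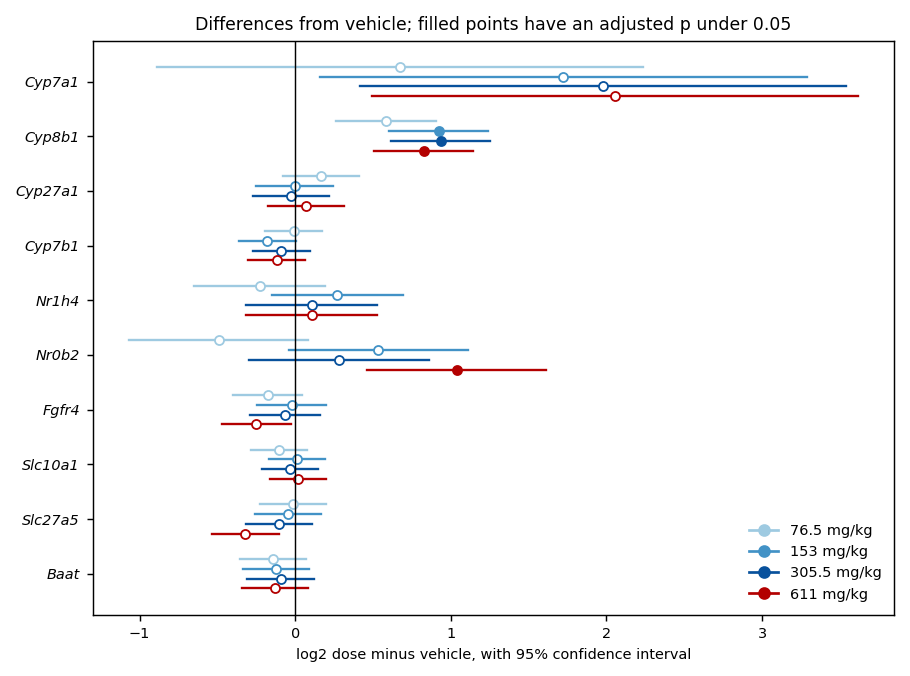
Log2 dose minus vehicle (horizontal axis) for each of the 10 genes (vertical axis) at 4 doses, with 95% confidence intervals from the limma fit; filled points have an adjusted p under 0.05. Filled points are those of Cyp8b1 at 153, 305.5 and 611 mg/kg and of Nr0b2 at 611 mg/kg, and the intervals of Cyp7a1 are the widest shown.

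Genes whose rats of a dose all lay outside the vehicle range on 1 side were also counted. At 76.5 mg/kg this held for 1 of the 10 genes, Cyp8b1, and for 6.3% of all genes. At 153 mg/kg it held for Cyp7a1, Cyp8b1 and Cyp7b1 (12.7% of all genes), and at 305.5 mg/kg for Cyp7a1 and Cyp8b1 (13.7%). At 611 mg/kg it held for Cyp7a1, Cyp8b1, Nr0b2 and Fgfr4 (18.6%).

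Neighbouring doses were compared to see whether levels still moved along the series. For 153 against 76.5 mg/kg limma called 0 of the 10 genes (2 at an unadjusted p under 0.05) and 0% of all genes (1134 at an unadjusted p under 0.05). The 2 were Nr0b2, with a difference of 1.03 ± 0.31 (adjusted p = 0.388), and Nr1h4, with 0.50 ± 0.22 (adjusted p = 0.609). For 305.5 against 153 mg/kg it called 0 of the 10 (0 unadjusted) and 0% of all genes (1338 unadjusted). For 611 against 305.5 mg/kg it called 0 of the 10 (1 unadjusted) and 0.324% of all genes (2281 unadjusted). The 1 was Nr0b2, at 0.76 ± 0.31 (adjusted p = 0.254).

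Over the rank of the 5 groups, 3 of the 10 genes rose and 0 fell, where 6.74% of all genes were called. Cyp8b1 rose by 0.22 ± 0.04 per step (limma adjusted p = 0.00489), Cyp7a1 by 0.56 ± 0.16 (adjusted p = 0.0372) and Nr0b2 by 0.26 ± 0.07 (adjusted p = 0.0390). Slc27a5 had a slope of -0.07 ± 0.02 (adjusted p = 0.0750). Without the 611 mg/kg group Cyp8b1 was the only one of the 10 still called, and Cyp7a1 (0.71, adjusted p = 0.120) and Nr0b2 (0.16, adjusted p = 0.57) were not. With the dose in mg/kg in place of the rank Nr0b2 and Slc27a5 were called, and Cyp8b1 (adjusted p = 0.0652) and Cyp7a1 (adjusted p = 0.101) were not. The slope calls of Cyp7a1 and Nr0b2 were each lost without 1 of several rats, such as 611 mg/kg rat 3 (adjusted p = 0.101 and 0.111).

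When the groups are put in order of their mean, each gene has 4 pairs of neighbours. For Cyp8b1 the ranges of 1 pair were apart, those of vehicle and 76.5 mg/kg at the lower end of the order. For Nr0b2 they were apart for 611 mg/kg and the next group, 153 mg/kg. In the other 8 genes the ranges of all neighbours overlapped. At least 1 pair apart was thus found in 2 of the 10 genes, and in 12.8% of all genes.

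SHP is known as a repressor of Cyp7a1 and Cyp8b1, so the rats were also compared within groups, after the group means had been removed. Deviations of Nr0b2 and Cyp7a1 had Pearson r = 0.67 (n = 17, two-sided exact permutation within groups, p = 0.103) and Spearman rho = 0.55 (exact permutation p = 0.0646). Over the 5 pairs compared the Benjamini-Hochberg adjusted values were 0.325 and 0.323. Without the 2 rats farthest from the median of Nr0b2, 76.5 mg/kg rats 3 and 1, r was 0.22. Leaving out rat 3 alone gave r = 0.14 and leaving out rat 1 alone r = 0.66, so the relation rests on 76.5 mg/kg rat 3. Both genes were lowest in 76.5 mg/kg rat 3.

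For Nr0b2 with Cyp8b1, r was 0.45 and rho 0.23 (exact permutation p = 0.351 and 0.484, adjusted 0.585 and 0.807), and r was 0.02 without the same 2 rats. Cyp7b1 lay too near background for its deviations to be read, and its pair with Nr0b2 is given because it was 1 of the 5 tested: r was 0.64 and rho 0.44 (exact permutation p = 0.130 and 0.183, adjusted 0.325 and 0.456), and 0.22 without them. For Nr0b2 with Slc10a1, r was 0.15 and rho 0.13 (exact permutation p = 0.790 and 0.722, adjusted 0.790 and 0.902), and -0.07 without them. No pair passed the test.

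Nr1h4 and Nr0b2 had r = 0.39 and rho = -0.01 (exact permutation p = 0.566 and 0.969, adjusted 0.707 and 0.969). Without the 2 rats farthest from the median of Nr1h4, 76.5 mg/kg rats 3 and 2, r turned to -0.61 (exact permutation p = 0.0570, adjusted 0.285). Without the 3 arrays that stood apart it was -0.76 (exact permutation p = 0.0227, adjusted 0.113). Leaving out 76.5 mg/kg rat 3 alone also gave -0.61, against 0.34 without rat 1 and 0.28 without rat 2, so that 1 rat turned the sign.

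**Figure D3:**
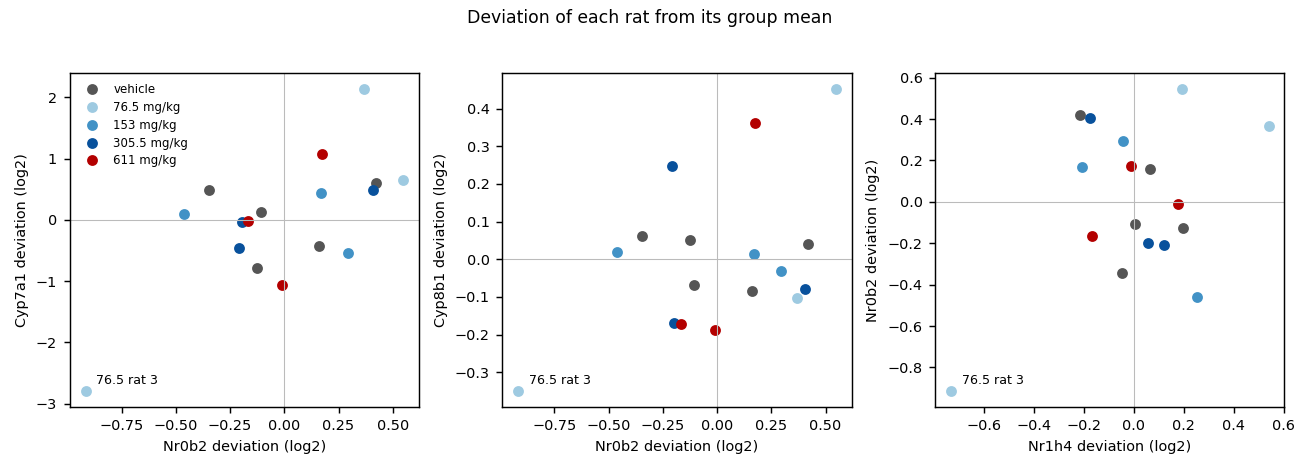
Deviation of each of 17 rats from its group mean, in log2 units on both axes, for Nr0b2 against Cyp7a1 (left), Nr0b2 against Cyp8b1 (middle) and Nr1h4 against Nr0b2 (right), with points coloured by group. The point of 76.5 mg/kg rat 3 lies at the lower left of each panel, away from the other rats.

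The other genes of bile acid synthesis were read from a list of 15, of which 14 were measured. Amacr, the racemase that prepares side chain intermediates for shortening in peroxisomes, was the 1 member called at each dose. It was at 12.58 to 12.94 in vehicle and 13.06 to 13.59 in treated rats, with no overlap, and it rose by 0.55, 0.62, 0.37 and 0.63 in order of dose (SE 0.09, limma adjusted p = 0.0188, 0.00319, 0.0490 and 0.000787). Its call was lost at 76.5 mg/kg without rat 2 of that dose (adjusted p = 0.0759), and at 305.5 mg/kg it was made in 13 of 27 alternatives. Without the 3 arrays that stood apart 2 members were called at 305.5 mg/kg, Amacr and Akr1c14. The remaining 13, among them Hsd3b7, Akr1d1 and Acox2, were not called with all arrays, and the list median at 611 mg/kg was 0.12 beside -0.00 over all genes. With all arrays 0.267%, 0.746%, 2.22% and 7.46% of all genes were called in order of dose.

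Of 19 listed partners and regulators of FXR and SHP, 16 were analysed here and limma called 0 at any dose or for the slope, and the 1 exception was Prox1 at 305.5 mg/kg without the 3 arrays that stood apart. At 611 mg/kg the difference was 0.25 ± 0.11 for Nr5a2, the LRH-1 gene, and -0.15 ± 0.13 for Hnf4a (adjusted p = 0.196 and 0.50). The list median at that dose was -0.06. Of 17 other genes known as FXR targets, 15 were measured, and the 1 called at 611 mg/kg was Pltp, the phospholipid transfer protein gene, which fell by 0.74 ± 0.15 (adjusted p = 0.00658). Of the listed bile acid exporters, Abcb11, the canalicular bile salt pump, differed by 0.10 ± 0.08 (adjusted p = 0.430) and Slc51a, a subunit of the basolateral exporter, by -0.19 ± 0.09 (adjusted p = 0.193), and neither was called. In the uptake and export list that holds them, 5 members were called higher and 2 lower at 611 mg/kg. Abcc3 and Abcc2 (higher) and Abcb4 (lower) were among these, as given below. With 0 of the 15 other FXR targets called higher at 611 mg/kg, beside 716 of all 14217 genes, the count was near that of all genes. At 305.5 mg/kg 0 were called, or 1, Insig2, which was lower, without the 3 arrays that stood apart.

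Among 17 measured genes of uptake and export (18 listed), Abcc3, the basolateral exporter of conjugated organic anions, was the 1 member called at 76.5 and 153 mg/kg. It was at 6.36 to 6.92 in vehicle and 7.53 to 10.43 in treated rats, and it rose by 2.29, 1.99, 2.78 and 3.55 in order of dose (SE 0.36, limma adjusted p = 0.0140, 0.0147, 0.000548 and 4.34e-05). The Abcc3 call at 76.5 mg/kg was lost without rat 2 of that dose (adjusted p = 0.0759), and that at 153 mg/kg without rat 1 or 2 (adjusted p = 0.102 and 0.160). Without the 3 arrays that stood apart Ephx1 was also called at 153 mg/kg, which made 2. At 305.5 mg/kg 3 members rose and 1 fell, or 3 and 3 without the 3 arrays that stood apart. Of all 14217 genes 778 were called at that dose without these arrays, against 316 with them. The counts for 611 mg/kg were 5 and 2, or 4 and 2 without them. With all arrays, 107 of all 14217 genes rose and 209 fell at 305.5 mg/kg, and 716 rose and 344 fell at 611 mg/kg. Abcc2, the canalicular exporter of conjugates, rose by 0.51 ± 0.10 and 0.47 ± 0.10 at these doses (adjusted p = 0.00888 and 0.00800), and the first of these calls was lost without 305.5 mg/kg rat 3 (adjusted p = 0.0558). Ephx1, a microsomal epoxide hydrolase also described in rat as a bile acid carrier, rose by 0.83 and 0.71 (SE 0.17, adjusted p = 0.0167 and 0.0199), calls that were each lost without single rats of the dose.

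Of the canalicular lipid transporters, Abcb4, Abcg8 and Abcg5 had lower means at 611 mg/kg than in vehicle, and the flippase Atp8b1 a higher one. Abcb4, the canalicular phospholipid floppase, was at 10.26 to 10.36 in vehicle and 9.68, 9.30 and 9.68 at 611 mg/kg, where it fell by 0.73 ± 0.13 (limma adjusted p = 0.00391, called in 27 of 27 alternatives). Abcg8, a subunit of the canalicular sterol exporter, fell by 1.13 and 1.12 at 305.5 and 611 mg/kg (SE 0.27, adjusted p = 0.0387 and 0.0201), to group means under log2 6. Its calls were lost without single rats, such as rat 1 at 305.5 mg/kg (adjusted p = 0.256) and rat 2 at 611 mg/kg (adjusted p = 0.109). Its partner subunit Abcg5 differed by -0.99 and -0.92 at these doses and was not called (SE 0.29, adjusted p = 0.0865 and 0.0609), but was called at 305.5 mg/kg without the 3 arrays that stood apart. Atp8b1, the aminophospholipid flippase of the same membrane, rose by 0.55 ± 0.12 at 611 mg/kg (adjusted p = 0.00911, but 0.160 with the mean over its probe sets). Slco2b1, an uptake transporter gene named after its values were seen, rose by 0.34 ± 0.09 at that dose (adjusted p = 0.0348, called in 15 of 27 alternatives). With the mean over its probe sets the Slco2b1 difference was 0.12 (limma adjusted p = 0.630).

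Of 11 genes of bile acid detoxification 9 were measured. Among all genes 0.267%, 0.746%, 2.22% and 7.46% were called in order of dose. Ugt2b1, a glucuronosyltransferase, rose at every dose by 0.89, 1.12, 1.18 and 1.44 (SE 0.17, limma adjusted p = 0.0325, 0.00319, 0.00119 and 0.000131), with the call at 76.5 mg/kg made in 19 of 27 alternatives. Cyp2c22 fell by 0.61 ± 0.10 at 153 mg/kg (adjusted p = 0.00840), a call lost without rat 2 or 3 of that dose (adjusted p = 0.0831 and 0.0577), and the other members were not called at any dose. At 76.5 mg/kg without the 3 arrays, where 1 rat was left, the differences were 0.43 for Amacr, 2.45 for Abcc3 and 1.09 for Ugt2b1, and 0 of the 3 were called (adjusted p = 0.603, 0.192 and 0.198). For the slope Cyp2b3 also passed, at -0.06 ± 0.02 (adjusted p = 0.0449, called in 10 of 28 alternatives).

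**Figure D4:**
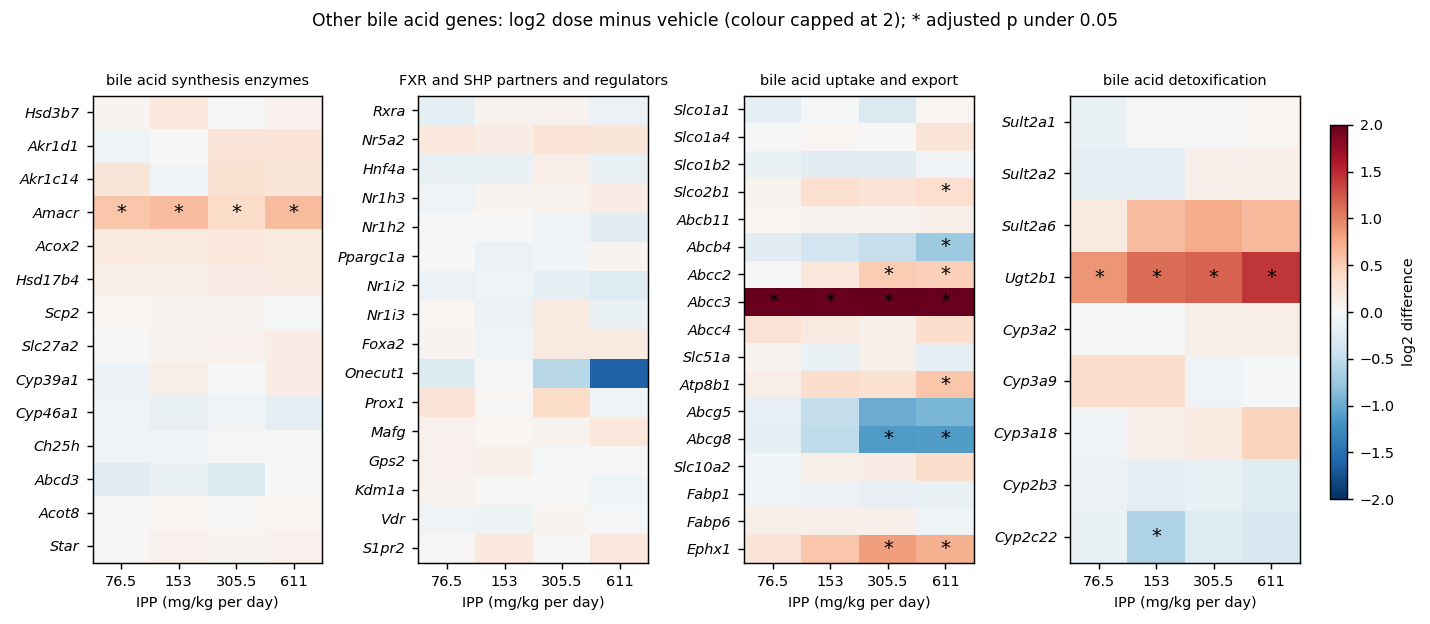
Log2 dose minus vehicle (colour, capped at 2) for the measured genes of 4 lists (rows) at 4 doses (columns, mg/kg per day); an asterisk marks an adjusted p under 0.05. Rows called at every dose are Amacr (0.37 to 0.63), Abcc3 (1.99 to 3.55) and Ugt2b1 (0.89 to 1.44), and no row is called among the FXR and SHP partners.

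Transcripts of Cyp7a1 and other bile acid genes are known to vary over the day in rodents, and clock genes moved with the dose groups here. Dbp, an output factor of the clock, was at 5.72 to 6.29 in vehicle and 7.26 to 10.57 in treated rats. Nr1d1, which encodes the repressor REV-ERB-alpha, was at 5.61 to 6.27 in vehicle and 8.21 to 9.49 in treated rats. Of 17 measured clock genes (19 listed), 3 rose and 1 fell at 76.5 mg/kg, 5 rose and 4 fell at 153 mg/kg, 6 rose and 4 fell at 305.5 mg/kg, and 7 rose and 4 fell at 611 mg/kg. The shares called among all genes were the 0.267%, 0.746%, 2.22% and 7.46% given above, with all arrays. At 153 mg/kg 314 of all 14217 genes were called without the 3 arrays that stood apart, against 106 with them. Without the 3 arrays that stood apart 2 rose and 0 fell at 76.5 mg/kg, where the Dbp call was lost (2.34, adjusted p = 0.0589), and 6 rose and 4 fell at 153 mg/kg. The mean over the list was 7.73 to 7.89 in vehicle, 7.85 to 8.15 at 76.5 mg/kg, 8.20 to 8.22 at 153 mg/kg, 8.04 to 8.25 at 305.5 mg/kg and 8.15 to 8.27 at 611 mg/kg. All 12 treated rats lay above every vehicle rat for Dbp and Nr1d1, which held for 0.549% of all genes. Among the genes above, Cyp8b1, Amacr, Abcc3 and Ugt2b1 were of this kind too. The part of the clock genes in the bile acid results was not tested.

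Markers of other liver cells also moved at the upper doses of 305.5 and 611 mg/kg. Nr0b2 and Abcb4 were called at 611 mg/kg and not at 305.5 mg/kg. The mean of Abcb4 was lower at each higher dose, however, at 10.28 in vehicle and 10.06, 9.90, 9.82 and 9.55 in order of dose. Its slope was called in 28 of 28 alternatives. Of all 14217 genes, limma called 209 lower at 305.5 mg/kg, and 344 lower and 716 higher at 611 mg/kg, with all arrays. Without the 3 arrays that stood apart it called 778 at 305.5 mg/kg in either direction, against 316 with them. Of 5 endothelial markers 1 fell at 305.5 mg/kg and 4 fell at 611 mg/kg (3 and 5 without the 3 arrays that stood apart), led by Stab2 (fell by 0.91 ± 0.13, limma adjusted p = 0.000703). The mean over these 5 was 9.41 to 9.61 in vehicle, 9.36 to 9.58 at 76.5 mg/kg, 9.56 to 9.59 at 153 mg/kg, 8.88 to 9.20 at 305.5 mg/kg and 8.88 to 8.99 at 611 mg/kg. Of 5 stellate cell and fibroblast markers Pdgfrb fell by 0.73 and 0.80 at the upper doses (adjusted p = 0.0150 and 0.00466). The first call was lost with the mean over its probe sets (-0.22, adjusted p = 0.206), with the replicate block (0.0642) and without 305.5 mg/kg rat 1 (0.102). Without the 3 arrays that stood apart 1 of these 5, Pdgfrb, fell at 153 mg/kg and 2, Pdgfrb and Col3a1, at each upper dose. The list mean was 7.78 to 8.13 in vehicle and 7.36 to 7.55 at 611 mg/kg. Of 5 measured cholangiocyte markers (6 listed) Epcam was called higher (0.72) and Krt7, with group means under log2 6, lower (-0.43) at 611 mg/kg, with a list mean of 6.39 to 6.69 in vehicle and 6.57 to 6.63 at that dose, and both calls were lost without 611 mg/kg rat 2 (adjusted p = 0.124 and 0.220) and without the 3 arrays. Macrophage (3 of 5 measured) and lymphocyte (4 of 5 measured) markers were not called at any dose with all arrays, and 1 macrophage marker, Cd163, was called lower at 305.5 mg/kg without the 3. In whole liver fewer cells of a type and less RNA per cell cannot be told apart, and the part of these cells in the results above was not tested.

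For the 3 genes called for the slope, the transcripts whose levels were most alike over the 17 arrays were named by Pearson r, as a description over arrays that share their dose groups. They were Oaf (0.93), Osbpl11 (0.88) and Hsd17b2 (0.88) for Cyp8b1. For Cyp7a1 they were Enpp2 (0.91), Tmem268 (0.89) and Aebp2 (0.88), and for Nr0b2 Atp6v0e2 (0.91), Myo5b (0.88) and Idnk (0.87). No gene was among the 3 most alike of more than 1 of Cyp8b1, Cyp7a1 and Nr0b2. Between these 3 the levels had r = 0.71 for Cyp7a1 with Cyp8b1, 0.68 for Cyp7a1 with Nr0b2 and 0.48 for Cyp8b1 with Nr0b2. Cyp7a1 and Nr0b2 were both lowest in 76.5 mg/kg rat 3, and their within-group r fell from 0.67 to 0.14 without it. The r values of levels were not computed without that rat.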

How the data were processed

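The authors deposited log2 values. Per the submitters' processing notes these came from RMA, a method that corrects background, equalizes array distributions and summarizes each probe set; its version is not given in the sources used here. Of 31099 probe sets 57 were controls, 20826 carried 1 symbol, 436 several and 9780 none, with a platform annotation of 2016. The brightest probe set on average stood for each gene, which meant a choice for 4525 genes but for none of the 10 described here. Of 14217 genes 14167 matched the gene reference by ID, and 0 symbols changed.

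Groups came from the sample labels. The labels name separate rats. Group differences came from limma 3.58.1 (R 4.3.3), from a linear model over 17 arrays with 5 groups and from a slope over group rank (eBayes with trend), on all genes, with Benjamini-Hochberg adjustment within each comparison. No filter was used. Deviations were correlated with an exact permutation over 155520 orders within groups. The tests were checked on simulated data. Sequences came from RefSeq (GRCr8).

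The 10 genes, the gene lists, the motifs and the tests were chosen with earlier results of these data known. All 10 genes were named. From each list all genes passing a comparison were to be named where 5 or fewer did, and otherwise the 4 with the smallest p, and for genes called for the slope the 3 most correlated genes. For clock genes and endothelial markers this was not kept, and Dbp, Nr1d1 and Stab2 alone were named. Alternatives were probe set means, a filter that dropped the dimmest 40% of genes, arrays centred on their medians, array weights, quantile normalization repeated, a variance prior without trend, a replicate block, a GAPDH covariate, each pair of groups alone, omission of the 3 arrays that stood apart, omission of each rat, the dose in mg/kg, and the slope without the 611 mg/kg group. Running these for the other bile acid, clock and marker genes was chosen after seeing the data. Genes named as called only with the 3 arrays left out were likewise chosen after their values were seen.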

Additional observations from a re-analysis of the deposited data

How the results depend on the processing

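Counts of the 10 genes called moved by 1 to 3 genes under some alternatives, and no called value changed sign. At 76.5 mg/kg 1 gene, Cyp8b1, was called with array weights, where 696 of all 14217 genes were called against 38 in the main fit. At this dose that fit rests mainly on 76.5 mg/kg rat 1 (array weight 5.04, against 0.31 and 0.27 for rats 2 and 3). Without the 3 arrays that stood apart, where that rat alone was left, the Cyp8b1 difference was 1.04. At 153 mg/kg the count was 0 with the replicate block (Cyp8b1 adjusted p = 0.0576), where 49 of all genes were called against 106 in the main fit. It was 2 without the 3 arrays (314 of all genes) and with the 2 groups alone (329), which added Cyp7a1. At 305.5 mg/kg it was 2, again with Cyp7a1, with array weights, without the 3 arrays and with the 2 groups alone. Of all genes 1114, 778 and 638 were called in these fits, in that order, against 316 in the main fit. At 611 mg/kg the count was 1 with the replicate block (Nr0b2 adjusted p = 0.0810), where 387 of all genes were called against 1060 in the main fit. Cyp7a1 was called at that dose with array weights (limma adjusted p = 0.00420), with the 2 groups alone (0.0162) and without the 3 arrays. Slc27a5 was called after centring each array (limma adjusted p = 0.0447) and after quantile normalization was repeated (0.0493). For the slope the count was 0 with the replicate block (327 of all genes) and 1 without the 611 mg/kg group (290), against 958 of all genes in the main fit. Vehicle rats 4 and 5 had no same-numbered rat at any dose. The replicate block fitted them exactly, so its differences rest on vehicle rats 1 to 3. A call lost through fewer vehicle rats and one lost through a replicate effect cannot be told apart there. Deviations of same-numbered rats correlated with a median of 0.01 over 30 pairs of arrays, and 10 of the 30 were above 0.1. Those of differently numbered rats had a median of -0.02 over 84 pairs, and 20 of the 84 were above 0.1. A pairing of rats by replicate number was not tested beyond these values. Leaving out each of 17 rats gave 0 to 1 genes at 76.5 mg/kg, 1 to 1 at 153 mg/kg, 1 to 2 at 305.5 mg/kg, 1 to 4 at 611 mg/kg and 1 to 4 for the slope, with the highest count without 76.5 mg/kg rat 3 in each case where it moved up. Cyp8b1 was called in 27 of 27 alternatives at 305.5 and 611 mg/kg and in 26 of 27 at 153 mg/kg, Nr0b2 at 611 mg/kg in 20 of 27 (adjusted p from 0.00271 to 0.0930), and Cyp7a1 at 611 mg/kg in 5 of 27 (adjusted p from 0.00420 to 0.293). Slope calls held in 26 of 28 for Cyp8b1, 17 of 28 for Nr0b2 and 16 of 28 for Cyp7a1. No neighbouring dose comparison and no correlation passed its test under any alternative run. Cyp7b1 was too near background to be followed.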
